A study of Mus musculus with 18 samples.

Results

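ER-associated degradation (ERAD) genes were followed in mouse fibroblasts under heat shock and ER stress. The 10 genes are Herpud1, Sel1l, Syvn1, Derl1, Derl2, Derl3, Edem1, Edem2, Edem3 and Os9, chosen by name among the 20207 genes listed for every library. All 10 had at least 1 read in each of the 18 libraries, the condition for testing that 12731 genes met. The cells were NIH3T3, an established mouse fibroblast line, stably expressing a destabilizing domain fused to GFP (DD-sfGFP) and, per the study's methods, kept with the ligand S1 that folds this domain. There were 6 groups of 3 libraries: control (no stress, 0 min), heat shock (HS) for 45 and 135 min, and tunicamycin (Tu), which blocks N-linked glycosylation, for 45, 135 and 405 min. HS was measured at no later time. The cells are an engineered line in culture, and the labels do not say whether replicates were grown separately, so that p-values measure the spread between these libraries, which may be technical.

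ERAD takes misfolded proteins out of the endoplasmic reticulum and hands them to the proteasome. Mannosidase-like EDEM proteins and the lectin OS9 recognize glycoproteins that fail to fold, SEL1L couples this recognition to the membrane ubiquitin ligase SYVN1 (HRD1), derlins take part in moving the substrate across the membrane, and the ubiquitin-like protein HERPUD1 helps assemble the ligase complex. Many of these genes are known targets of the unfolded protein response of the ER, through the transcription factors XBP1 and ATF6.

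Libraries held 33415592 to 66478268 reads on genes. Levels are given as CPM (counts per 1000000 reads on genes, scaled over the 18 libraries by TMM), and 3 reads corresponded to 0.0451 to 0.0898 CPM, a floor that covers counting error only. Hspa5, the ER chaperone BiP, rose 13.2-fold at 405 min of Tu, and Hspa1b, an inducible Hsp70, rose 152-fold at 135 min of HS. Earlier in Tu, Hspa5 had 923 to 954.9 CPM at 45 min, above control (656 to 735.5 CPM). At 135 min it lay below control, at 333 to 491 CPM (log2 fold change -0.72, edgeR adjusted p = 0.135). Hspa1b was uneven between libraries, at 280, 223 and 46.0 CPM in replicates 1 to 3 at 45 min of HS. At 135 min of HS it had 263, 1142 and 1214 CPM. The 7 fibroblast markers examined were present in every library, whereas the defining markers of epithelium, endothelium and leukocytes stayed under 0.1 RPKM except Cd68 (3.72 to 7.61 RPKM). Libraries of a group were unevenly alike. A single axis across genes carried 74.0% of the variation inside groups. A surrogate variable was estimated separately from the 18 libraries, and its likeness to this axis was not computed. It was lowest in HS 45 min replicate 2 (-0.527), HS 135 min replicate 2 (-0.495), HS 45 min replicate 1 (-0.318) and Tu 135 min replicate 1 (-0.212). The correlation of log2 CPM between replicates was lowest within HS, at 0.934 for replicates 1 and 2 at 135 min and 0.936 for replicates 2 and 3 at 45 min. The level in each of these libraries is therefore given singly below.

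The sequences just upstream of the start of 3 members are shown because they hold a match to an ER stress response element, the motif bound by ATF6 and XBP1 in genes of the unfolded protein response, and because these 3 genes differed widely in level. Windows from 250 bases before to 50 bases after each RefSeq start (GRCm38.p6, another build than the mm9 of the counts) were searched on both strands for ERSE (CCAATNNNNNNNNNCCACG), ERSE-II (ATTGGNCCACG), the UPRE core (TGACGTG), the C/EBP-ATF element (TGATGNAAT) and a heat shock element (GAANNTTCNNGAA). Windows were found for 9 of the 10 members (none for Derl1). The 250 upstream bases are given 5′ to 3′ on the gene's strand, with the match in capitals:
Herpud1, chr8:94386179-94386428, + strand: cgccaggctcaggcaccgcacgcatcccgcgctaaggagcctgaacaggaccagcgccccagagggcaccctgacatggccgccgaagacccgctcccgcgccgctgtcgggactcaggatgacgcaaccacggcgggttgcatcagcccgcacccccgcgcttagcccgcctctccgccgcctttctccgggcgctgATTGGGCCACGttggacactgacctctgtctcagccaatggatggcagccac
Syvn1, chr19:6046326-6046575, + strand: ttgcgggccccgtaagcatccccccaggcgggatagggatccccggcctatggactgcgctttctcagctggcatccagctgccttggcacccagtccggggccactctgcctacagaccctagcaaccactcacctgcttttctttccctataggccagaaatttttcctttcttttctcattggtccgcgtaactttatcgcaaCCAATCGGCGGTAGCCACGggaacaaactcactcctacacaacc
Derl3, chr10:75893148-75893397, + strand: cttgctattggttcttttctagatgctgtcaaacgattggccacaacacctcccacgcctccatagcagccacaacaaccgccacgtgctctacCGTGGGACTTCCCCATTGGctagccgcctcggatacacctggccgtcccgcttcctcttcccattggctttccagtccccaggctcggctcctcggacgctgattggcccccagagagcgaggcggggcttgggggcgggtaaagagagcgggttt
The Herpud1 match was an ERSE-II on the gene's strand from -52 to -42, that of Syvn1 an ERSE on the gene's strand from -44 to -26, and that of Derl3 an ERSE on the opposite strand from -156 to -138. Of all 32851 promoter windows, 0.119% held ERSE and 0.0365% held ERSE-II. The other 6 members with a window had no match to either, and none of the 9 held the UPRE core, the C/EBP-ATF element or the heat shock element, which stood in 2.01%, 0.965% and 0.603% of all windows. A match is a description of letters and was not tested for binding.

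At 405 min of Tu, 8 of the 10 ERAD genes were induced, from 2.17-fold for Os9 to 27.0-fold for Herpud1, and none was repressed. In this comparison 23.3% of all genes tested passed the threshold (adjusted p under 0.05, edgeR's quasi-likelihood test) as higher and 23.5% as lower. The median log2 fold change of the 9 members other than Derl3 was 2.18, and that of all genes tested was -0.01. Herpud1, Syvn1 and Sel1l, of the ligase complex, rose most, followed by Derl2, Derl1, Edem1, Edem2 and Os9. In these bulk libraries, a change in the number of cells that carry a transcript cannot be told apart from a change in RNA per cell. The 5 comparisons with control share the same 3 control libraries. These are labelled with the start time only, and no unstressed library is listed for any later time. The part of elapsed time and handling in the comparisons with control, and in those between times, was therefore not tested.

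**Figure D1:**
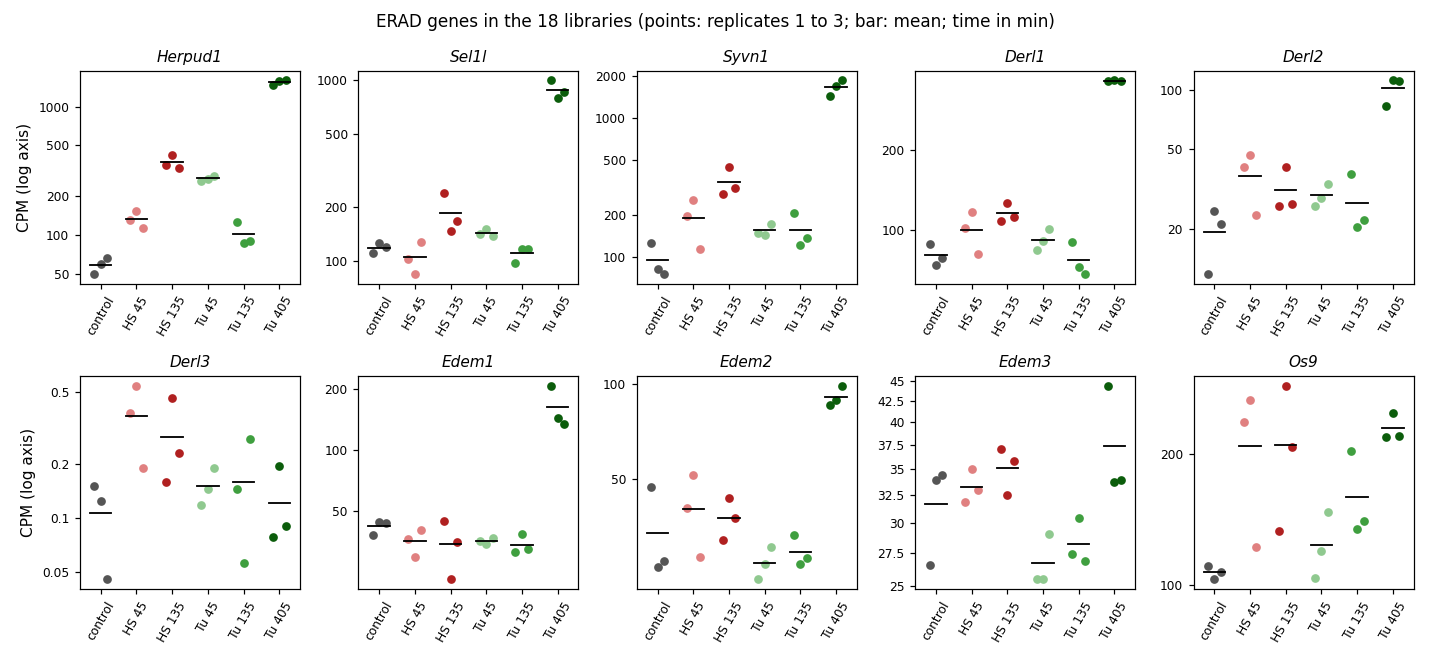
Level of each ERAD gene in CPM (log axis) in the 3 replicates of each group, with a bar at the group mean. The 3 libraries at 405 min of Tu lie above all 3 control libraries for 8 genes (29.2% of all genes tested do so), overlap with control for Edem3 (33.7 to 44.4 against 26.6 to 34.4 CPM), and lie near the floor for Derl3.

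Herpud1 (chromosome 8 of mm9, 96910400 to 96919258) had 49.7, 59.4 and 66.1 CPM in the 3 control libraries and 1486, 1575 and 1603 CPM at 405 min of Tu. Its log2 fold change was 4.76 (standard error, SE, of 0.167, edgeR adjusted p = 2.45e-06). Every library at 405 min exceeded the highest control library by a wide margin, and this was the gene with the largest change among the 10. Syvn1 (chromosome 19, 6046662 to 6053710), the ligase of the complex, had 126, 80.7 and 74.9 CPM in control and 1447, 1704 and 1861 CPM at 405 min. Its log2 fold change was 4.18 (SE 0.25, edgeR adjusted p = 1.9e-05), which is 18.1-fold. Sel1l (chromosome 12, 93044483 to 93087597), the adaptor that holds the recognition factors to the ligase, had 111, 126 and 119 CPM in control and 993, 798 and 861 CPM at 405 min, a log2 fold change of 2.92 (SE 0.143, edgeR adjusted p = 1.01e-05).

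The 3 derlins stood at different levels, and 2 of them rose. Derl1 (chromosome 15, 57701057 to 57723973) had 89.2, 74.3 and 79.0 CPM in control and 362, 363 and 360.1 CPM at 405 min of Tu, with a spread at 405 min of 1.47 CPM (SD, n = 3). Its log2 fold change was 2.18 (SE 0.126, edgeR adjusted p = 1.7e-05). Derl2 (chromosome 11, 70820947 to 70832765) was lower in every library, with 11.8, 24.6 and 21.1 CPM in control and 82.9, 111 and 111 CPM at 405 min. It rose by 2.43 on the log2 scale (SE 0.268, edgeR adjusted p = 0.000265), a size that does not differ from that of Derl1 beyond the standard errors. Derl3 (chromosome 10, 75356143 to 75358686) was close to the floor in every library. It had 6, 7 and 2 reads in control and 5, 11 and 5 reads at 405 min of Tu, and its highest count was 25 reads in HS 45 min replicate 2. Its groups overlapped at 405 min of Tu, where a change was not detectable at this depth, and no fold is given for it at these counts.

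Among the members that recognize glycoproteins, 3 of the 4 passed the threshold at 405 min of Tu. Edem1 (chromosome 6, 108778635 to 108809350) had 38.0, 44.3 and 43.8 CPM in control and 208, 145 and 135 CPM at 405 min, a log2 fold change of 1.97 (SE 0.182, edgeR adjusted p = 0.000115). Edem2 (chromosome 2, 155527409 to 155555211) had 47.3, 26.5 and 27.7 CPM in control, where replicate 1 stood above the others, and 85.8, 88.9 and 98.5 CPM at 405 min, a log2 fold change of 1.45 (SE 0.231, edgeR adjusted p = 0.00151). The lectin Os9 (chromosome 10, 126532706 to 126558181) had 111, 103 and 107 CPM in control and 219, 248 and 219 CPM at 405 min, a log2 fold change of 1.12 (SE 0.117, edgeR adjusted p = 0.000206). Groups of these 3 genes did not overlap. Edem3 (chromosome 1, 153602504 to 153669458) had 26.6, 33.9 and 34.4 CPM in control and 44.4, 33.7 and 33.9 CPM at 405 min, where only replicate 1 exceeded the highest control library. Its log2 fold change of 0.26 (SE 0.162) missed the threshold (edgeR adjusted p = 0.214). It passed in a fit with an offset for transcript GC content, at 0.38 (edgeR adjusted p = 0.0221), and was 0.10 without replicate 1 of Tu 405 min.

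None of the 8 calls at 405 min was lost when any of the 6 libraries was omitted, or in the 10 other alternative fits. The summed RPKM of the 7 fibroblast markers moved with this group, at 4216 to 4717 against 9024 to 9515 in control. The leukocyte markers summed to 5.0 to 5.68 against 4.82 to 6.84, almost all of it Cd68, with Ptprc at most 0.00532 in any library, and those of epithelium and endothelium each stayed at or below 0.132 RPKM in every library of the series. The part of the lower fibroblast markers in the ERAD result was not tested.

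**Figure D2:**
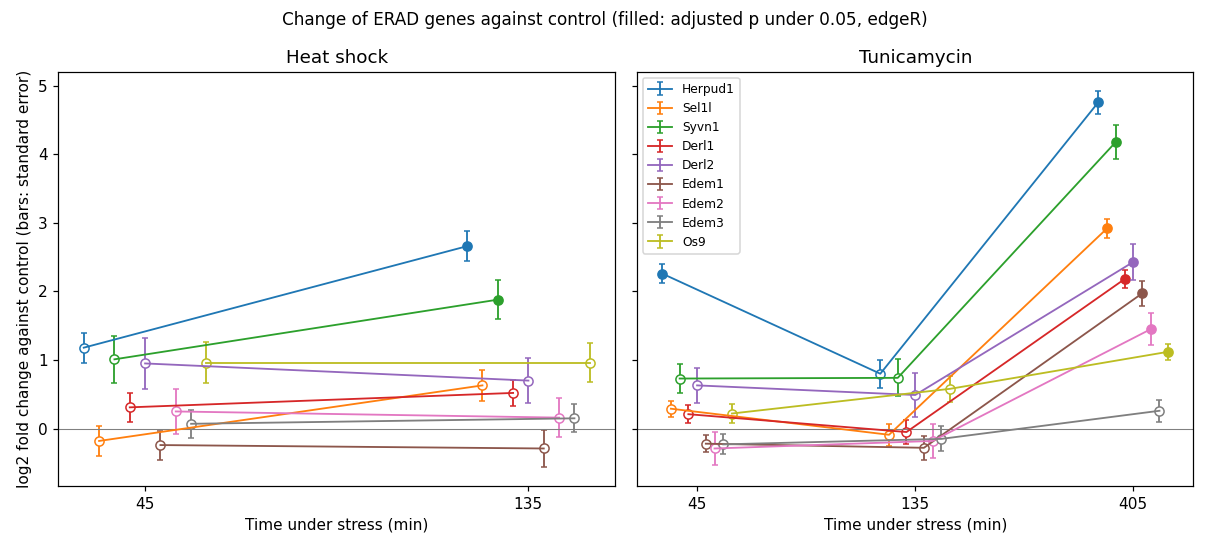
Log2 fold change against control of 9 ERAD genes (Derl3 is left out) by time in HS and in Tu, from the quasi-likelihood test of edgeR. Bars are standard errors and filled points passed an adjusted p of 0.05. Herpud1 went from 2.26 at 45 min of Tu to 0.80 at 135 min and 4.76 at 405 min.

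Earlier in the Tu series, Herpud1 was the member that moved. At 45 min, 1 of the 10 members was called, against 4.01% of all genes tested called higher and 2.17% called lower. Herpud1 had 266, 274 and 289 CPM, all above the highest control library at 66.1 CPM, a log2 fold change of 2.26 (SE 0.144, edgeR adjusted p = 0.000774). The call was held in every alternative, with log2 fold changes of 2.15 to 2.36. Sel1l, Syvn1 and Derl2 also lay above control in all 3 libraries, so that 4 of 10 members had groups that did not overlap and were higher, against 17.2% of all genes, and Edem1 lay below control (34.6 to 36.8 against 38.0 to 44.3 CPM), as 16.0% of all genes did. Syvn1 had 148, 142 and 172 CPM, a log2 fold change of 0.73 with an adjusted p of 0.0792 (edgeR), and it passed in 5 of the 10 alternative fits that kept all libraries and in the fit without control replicate 1.

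At 135 min of Tu no member was called (0.126% of all genes tested were called higher). With DESeq2, 1 member was called. At an unadjusted p under 0.05, 3 members were higher (Herpud1, Syvn1 and Os9), against 10.1% of all genes, and 2 members had groups that did not overlap, against 13.7% of all genes. Herpud1 had 127, 86.6 and 90.1 CPM, higher than control in all 3 libraries and lower than all 3 libraries at 45 min. Its log2 fold change against control was 0.80 (SE 0.202, edgeR adjusted p = 0.125), and without replicate 1, which stood apart, it was 0.63 (edgeR adjusted p = 0.102). Os9 had 203, 134 and 140.0 CPM, with replicate 1 again the highest, a log2 fold change of 0.58 (edgeR adjusted p = 0.183) that was 0.39 without this replicate. Syvn1 had 207, 122 and 136 CPM, a range that overlapped with control although each library exceeded its same-numbered control library, and a log2 fold change of 0.74 (edgeR adjusted p = 0.211). It was 0.49 without replicate 1 (edgeR adjusted p = 0.298), and with the replicate number as a block its adjusted p was 0.0703 (edgeR). In a fit of all 6 groups with the surrogate variable as a term, Herpud1, Syvn1 and Os9 passed at log2 fold changes of 0.70, 0.54 and 0.36 (adjusted p = 0.00137, 0.00646 and 0.0226, edgeR). That variable was estimated from these same libraries. With it, 15 of 65 other genes of the pathway were called too, against 0 in the main fit. The share of all genes called with it was not tabulated.

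The changes between the Tu times were tested directly. From 45 to 135 min, Herpud1 fell by 1.45 on the log2 scale (SE 0.166, edgeR adjusted p = 0.0368), the only member called, against 0.173% of all genes called lower. The direction was the same in every fit that left out a library, with log2 fold changes of -1.62 to -1.35, but the call was lost without any of the 3 libraries at 45 min and without replicate 2 or 3 at 135 min, with adjusted p-values of up to 0.368 (edgeR). It was held without Tu 135 min replicate 1 (edgeR adjusted p = 0.00183). From 135 to 405 min, 7 members rose, against 21.4% of all genes called higher. Herpud1 rose by 3.92 (15.2-fold), Syvn1 by 3.41 (10.6-fold), Sel1l by 2.98, Edem1 by 2.23, Derl1 by 2.20, Derl2 by 1.90 and Edem2 by 1.60 on the log2 scale, with adjusted p-values of 3.19e-05 to 0.00114 (edgeR). Os9 had a difference of 0.50 (edgeR adjusted p = 0.0576), and without Tu 135 min replicate 1 it passed at 0.71 (edgeR adjusted p = 0.000162). Edem3 had a difference of 0.38 (edgeR adjusted p = 0.0807) and passed without the same library at 0.36 (edgeR adjusted p = 0.0448).

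Under HS, 2 ERAD genes were induced by 135 min. They were Herpud1 at 6.31-fold and Syvn1 at 3.69-fold, and the threshold was passed by 4.75% of all genes tested as higher and by 2.64% as lower. Herpud1 had 349, 422 and 334 CPM, a log2 fold change of 2.66 (SE 0.218, edgeR adjusted p = 0.00534), held without each library in turn. Without HS 135 min replicate 2, the library that stood apart and had the highest level, it was 2.58 (edgeR adjusted p = 0.000864). Syvn1 had 284, 443 and 310 CPM, with the highest level again in replicate 2, a log2 fold change of 1.88 (SE 0.288, edgeR adjusted p = 0.0185). It was 1.69 without replicate 2 (edgeR adjusted p = 0.00861), and the call was lost without control replicate 2, control replicate 3 or HS 135 min replicate 3 (adjusted p = 0.109, 0.111 and 0.107, edgeR), while the log2 fold change stayed between 1.69 and 2.15.

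Other members lay above control at 135 min of HS without passing the threshold. In all, 7 of 10 members had groups that did not overlap and were higher, against 18.1% of all genes tested. Sel1l had 238, 147 and 167 CPM (log2 fold change 0.63, adjusted p = 0.117, edgeR), and here replicate 2 was the lowest. Derl1 had 108, 126 and 113 CPM (0.52, adjusted p = 0.113, edgeR). Os9 had 133, 286 and 208 CPM (0.96, adjusted p = 0.0724, edgeR), and its spread of 76.2 CPM compares with 3.69 CPM in control (SD, n = 3 each). Os9 passed without HS 135 min replicate 1, its lowest library (edgeR adjusted p = 0.0151), and in none of the 5 other fits that left out a library, with 0.70 (edgeR adjusted p = 0.0934) without replicate 2, its highest. Derl2 had 26.1, 40.7 and 26.5 CPM, and Derl3 10, 21 and 13 reads, both with the highest value in replicate 2, and the log2 fold change of Derl2 was 0.70 with all libraries and 0.45 to 0.92 when a library was left out, with no call. Edem1 (23.1 to 44.9 CPM), Edem2 (32.3 to 43.6 CPM) and Edem3 (32.5 to 37.0 CPM) overlapped with control. The number of members called depended on the fit. It was 5 with all 6 groups in a shared fit, 5 with the surrogate variable added and 5 with the GC offset. It was 3 with DESeq2 and 1 to 3 when a library was left out. With the replicate number as a block it was 0, and 3 with the block and the GC offset. With the surrogate variable the members called were Herpud1, Syvn1, Sel1l, Derl1 and Os9. Of 65 other genes of the pathway, 7 were called in the main fit. The shared fit called 18, the surrogate variable 29, the GC offset 13, DESeq2 11 and the block 0. The share of all genes called in these fits was not tabulated, so that these counts cannot be set against it.

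At 45 min of HS no member was called, and neither was any of the 12731 genes (0% called higher). DESeq2 called 1 member, Herpud1, and at an unadjusted p under 0.05, 5 members were higher (Herpud1, Syvn1, Derl2, Derl3 and Os9), against 12.3% of all genes. Herpud1 had 130.1, 154 and 114 CPM, all above control, a log2 fold change of 1.18 (SE 0.217, edgeR adjusted p = 0.227). Os9 had 236, 265 and 122 CPM, Syvn1 had 197, 254 and 114 CPM and Derl2 had 40.6, 46.8 and 23.5 CPM, each highest in replicate 2 and lowest in replicate 3. Groups did not overlap for 3 members, against 12.5% of all genes. With all libraries the log2 fold change was 1.01 for Syvn1, 0.96 for Os9 and 0.95 for Derl2 (edgeR adjusted p = 0.232, 0.227 and 0.241). Replicates 1 and 2 correlated at 0.987 (log2 CPM), and replicate 3 with them at 0.952 and 0.936. Without replicate 2, the lowest on the surrogate variable, no member was called. The log2 fold changes were then 1.06 for Herpud1, 0.73 for Syvn1, 0.74 for Os9 and 0.74 for Derl2. No member was called without replicate 1 either. Without replicate 3, the library least like the others of its group, 5 members were called. They were Herpud1 at 1.28, Syvn1 at 1.27, Os9 at 1.23, Derl2 at 1.19, and Derl3. In this fit 31 of 65 other genes of the pathway were called too, against 0 with all libraries. The share of all genes called in it was not tabulated, so that these counts cannot be set against it. The call of Herpud1 alone was obtained with the surrogate variable in the fit, at 0.96 (edgeR adjusted p = 0.00109).

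Both stresses were compared at the matched time of 135 min. Herpud1 was 3.59-fold higher in HS than in Tu, with 334 to 422 CPM against 86.6 to 127 CPM (log2 fold change 1.84, standard error 0.218, adjusted p = 0.0199, edgeR), the only member called, against 1.3% of all genes called higher. The call was held without HS 135 min replicate 1 or 2 and lost without HS 135 min replicate 3 (edgeR adjusted p = 0.14) or Tu 135 min replicate 1, 2 or 3 (adjusted p = 0.0604, 0.177 and 0.138, edgeR), with log2 fold changes of 1.75 to 2.03. Among the others, Syvn1, Sel1l and Derl1 were higher in all 3 HS libraries than in all 3 Tu libraries, at log2 fold changes of 1.14, 0.71 and 0.55, short of the threshold (adjusted p = 0.0845, 0.147 and 0.146, edgeR). All 3 passed with the surrogate variable in the fit, at 0.95, 0.84 and 0.49. With it, 25 of 65 other genes of the pathway were called too, against 2 in the main fit, and the share of all genes was not tabulated. Edem3 was higher in all 3 HS libraries too (32.5 to 37.0 against 26.9 to 30.4 CPM, edgeR adjusted p = 0.426). In all, 5 of 10 members had groups that did not overlap and were higher in HS, against 13.4% of all genes, and the remaining members overlapped between the stresses.

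The spread within groups was shared by most members. Over the 18 libraries, the deviation of a gene from its group mean was correlated with the surrogate variable, given here as a description, at -0.96 for Os9, -0.93 for Syvn1, -0.91 for Derl1, -0.83 for Edem2, -0.76 for Derl3, -0.67 for Herpud1 and -0.65 for Derl2. It was 0.89 for Sel1l, 0.76 for Edem1 and 0.28 for Edem3. Within groups, Sel1l was thus low in the libraries where its ligase Syvn1 was high. The same correlation was not tabulated over all genes tested, so that it is not given as a trait of these members or of this pair. With the variable in the fit, the change of Os9 went from 0.96 to 0.49 at 135 min of HS and from 1.12 to 0.84 at 405 min of Tu on the log2 scale, and that of Sel1l went from 0.63 to 0.83 and from 2.92 to 3.03. GC content of the transcript was 55.8% for Os9, 57.4% for Syvn1, 49.2% for Derl1, 53.3% for Edem2, 57.6% for Derl3, 53.0% for Herpud1 and 42.6% for Derl2. It was 47.7% for Sel1l, 46.7% for Edem1 and 43.0% for Edem3. What the surrogate variable stems from was not tested.

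**Figure D3:**
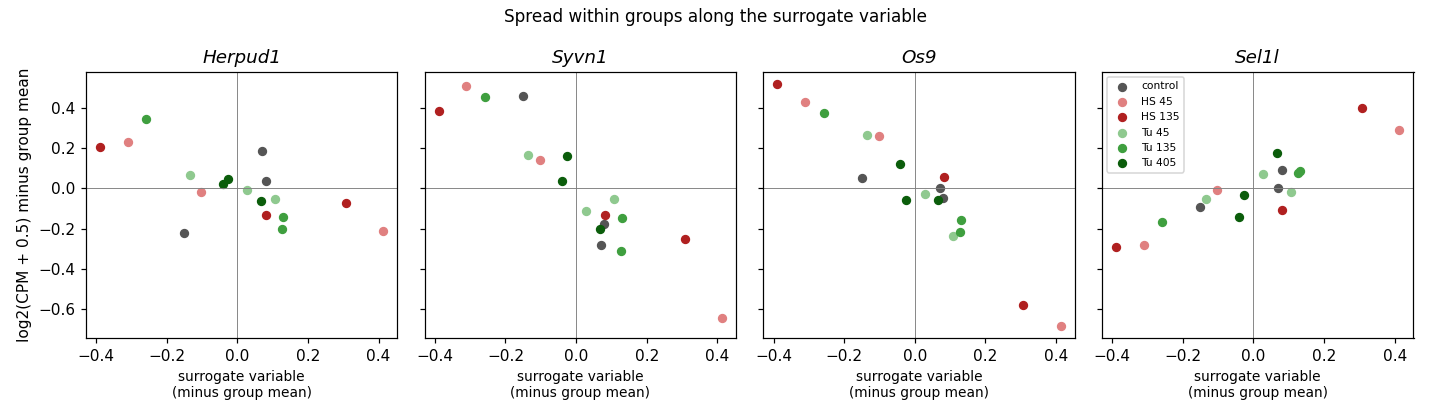
Deviation of log2(CPM + 0.5) from the group mean for Herpud1, Syvn1, Os9 and Sel1l (vertical axis) against the surrogate variable minus its group mean (horizontal axis), 1 point for each of the 18 libraries, coloured by group. Os9 and Syvn1 slope downwards (r = -0.96 and -0.93) and Sel1l upwards (r = 0.89), with the HS libraries at the ends.

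Levels were compared between genes by the authors' RPKM, which is scaled by length. In control, Os9 stood highest at 37.2 ± 0.964 RPKM (SD, n = 3), followed by Herpud1 at 26.7 ± 4.68, Syvn1 at 23.5 ± 6.03 and Derl1 at 21.9 ± 1.42, and these last 3 did not differ beyond their spread. Sel1l had 16.1 ± 1.49 RPKM, Edem2 12.5 ± 3.83, Edem1 6.15 ± 0.714, Derl2 4.55 ± 1.66 and Edem3 4.10 ± 0.701. Derl3 was at 0.0678 ± 0.0332 RPKM. At 405 min of Tu the order had changed, with Herpud1 at 677 ± 10.4 RPKM and Syvn1 at 403 ± 40.9, well above Sel1l at 115 ± 16.3, Derl1 at 93.8 ± 2.72 and Os9 at 75.8 ± 4.59. Edem2 had 32.4 ± 1.89 RPKM, Derl2 22.8 ± 3.08 and Edem1 22.7 ± 6.27, the latter pair within their spread. Edem3 remained at 4.63 ± 0.903 RPKM and Derl3 at 0.0734 ± 0.0372. The order of the groups also differed between genes. For Herpud1, CPM increased from control to Tu 135, HS 45, Tu 45, HS 135 and Tu 405 min, and of these neighbours only Tu 135 and HS 45 min overlapped. For Os9, Edem3 and Derl3, every neighbouring pair of groups overlapped.

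The other genes of the pathway, a list of 68 of which 65 could be tested, followed the members in part. At 405 min of Tu, 29 of the 65 rose and 5 fell, where 23.3% of all genes rose and 23.5% fell, with a median log2 fold change of 0.44 against 2.18 for the 9 members and -0.01 for all genes. The lumenal chaperones and reductases, which keep substrates soluble and unfold them for export, moved most, with 7 of 8 higher and a median of 3.29. Sdf2l1, a lumenal partner of ER J-proteins, rose 33.7-fold (872 ± 66.2 against 26.2 ± 4.80 CPM, SD, n = 3), Dnajb9, a J-protein cochaperone of BiP, 22.4-fold, and Hspa5 13.2-fold (adjusted p = 3.06e-06, 0.000122 and 4.64e-06, edgeR). Of the lectins and glycan-trimming enzymes 4 of 7 rose, of the conjugating enzymes 3 of 6, of the partners of ligase complexes 5 of 12 with 2 lower, and of the p97 complex and ubiquitin shuttles 7 of 20 with 1 lower. Among the other ligases of the ER membrane and cytosol, 3 of 12 rose and 2 fell, at a median of 0.13, shares near those of all genes. Rnf145, an ER membrane ligase, fell by 1.83 on the log2 scale from 128 ± 7.96 to 35.5 ± 4.53 CPM (edgeR adjusted p = 4.52e-05). Yod1, a deubiquitinase that works with p97, fell by 0.73 (edgeR adjusted p = 0.0116), a call lost without Tu 405 min replicate 2. Ube4a, which extends ubiquitin chains, fell by 0.65 (edgeR adjusted p = 0.00748) but had a log2 fold change of 0.11 with the surrogate variable in the fit.

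**Figure D4:**
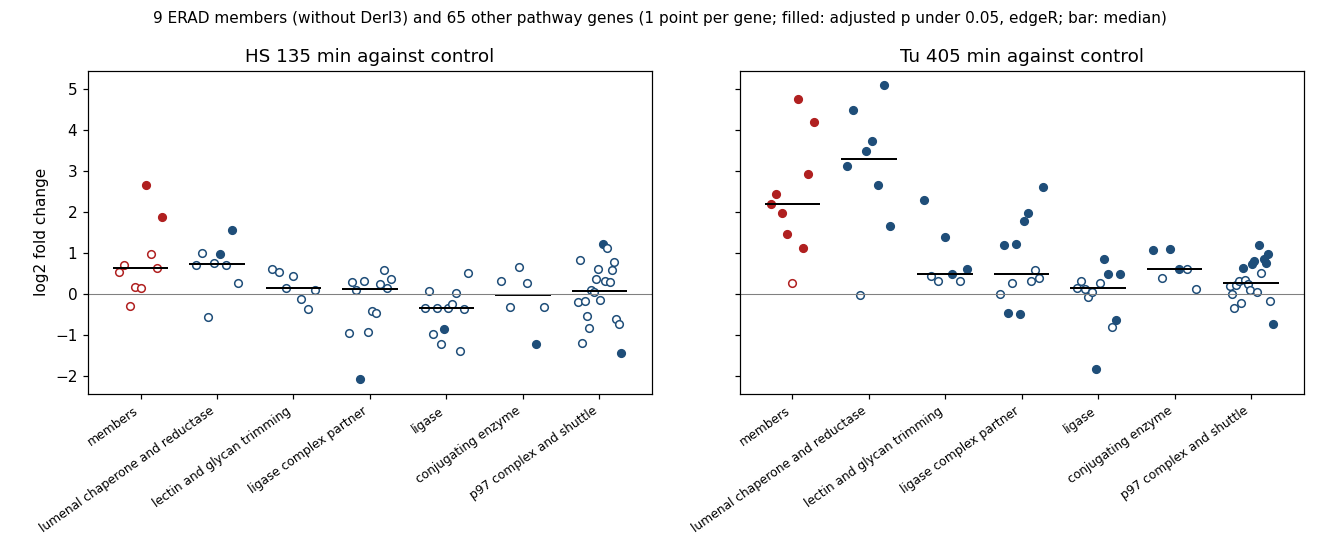
Log2 fold change at 135 min of HS (left) and 405 min of Tu (right) of 9 ERAD members (red, without Derl3) and of 65 other pathway genes by class (blue), 1 point per gene. Filled points passed an adjusted p of 0.05 (edgeR) and bars are medians, which at 405 min of Tu were 2.18 for the members, 3.29 for the lumenal chaperones and reductases and 0.13 for the other ligases.

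At 135 min of HS, 3 of the 65 other genes were higher and 4 lower, where 4.75% of all genes were higher and 2.64% lower. Sdf2l1 was higher by 1.56, Ubqln1, a shuttle that carries ubiquitinated proteins to the proteasome, by 1.21, and Hspa5 by 0.96 on the log2 scale (adjusted p = 0.0185, 0.0419 and 0.0312, edgeR). Fam8a1, a partner of the SYVN1 complex listed under the symbol C78339, was lower with a log2 fold change of -2.08 (2.98 ± 1.3 against 12.7 ± 4.48 CPM, SD, n = 3), Yod1 with -1.44 and the conjugating enzyme Ube2j2 with -1.22 (adjusted p = 0.0299, 0.0341 and 0.046, edgeR). With the GC offset, Yod1 was at -0.82 and no longer passed (edgeR adjusted p = 0.226). None of the 7 calls was left without control replicate 2, control replicate 3 or HS 135 min replicate 3, whereas the shared fit gave 18 calls. At 45 min of Tu, the intramembrane protease Rhbdd1 was higher by 0.85 and Rnf145 lower at -1.04 (adjusted p = 0.0232 and 0.00777, edgeR). No other gene of the list was called at 45 min of Tu, where 15 were called with the surrogate variable and 0 without Tu 45 min replicate 2, and none at 135 min of Tu or 45 min of HS in the 3 against 3 fits of edgeR. At 135 min of Tu, 12 of the 65 had an unadjusted p under 0.05, as did 2369 of the 12731 genes tested. DESeq2 called 3 of the 65, the shared fit 2, the GC offset 2 and the surrogate variable 15. At 45 min of HS, 6 of the 65 had an unadjusted p under 0.05, as did 2480 of the 12731 genes tested. DESeq2 called 0 of the 65, the shared fit 3, the surrogate variable 3, and the fit without HS 45 min replicate 3 called 31. The share of all genes called in these alternative fits was not tabulated. In the direct comparison of HS with Tu at 135 min, the 2 genes called were Sdf2l1 at 2.30 and Hspa5 at 1.67 on the log2 scale, both higher in HS (adjusted p = 0.0224 and 0.0218, edgeR), and both calls were lost without HS 135 min replicate 3 or any of the Tu libraries. Both had means at 135 min of Tu under those of control, 15.5 against 26.2 CPM for Sdf2l1 and 415 against 692 CPM for Hspa5.

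The pattern of Herpud1 over the 18 libraries was compared with that of all genes tested by the correlation of log2(CPM + 0.5), as a description. The points are libraries of 6 groups, so that group differences set most of the value. The 5 most alike genes outside the members were Ndrg1 (r = 0.985), Zcchc5 (0.977), Cpox (0.975), Kif21b (0.970) and Fibin (0.968). Ndrg1, a stress-responsive gene, had 47.2 ± 4.30 CPM in control, 152 ± 13.1 at 45 min, 65.8 ± 3.50 at 135 min and 366 ± 24.7 at 405 min of Tu (SD, n = 3), the same order of times as Herpud1. Cpox, an enzyme of heme synthesis, had 25.8 ± 1.04 CPM in control, 57.9 ± 2.22 at 45 min, 30.6 ± 2.41 at 135 min and 251 ± 9.78 at 405 min of Tu. Zcchc5 and Kif21b were low, at 0.261 and 0.195 CPM in control. Of the members, Syvn1 was most like Herpud1 (r = 0.928, rank 32 of the genes tested), followed by Derl1 (0.901), Sel1l (0.880), Derl2 (0.861), Edem2 (0.737), Edem1 (0.713), Os9 (0.577) and Edem3 (0.440), and Derl3 was at -0.027.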

How the data were processed

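Poly(A) RNA was sequenced from 18 NIH3T3 samples, and the authors used the DNAnexus platform for alignment to mm9 and for counting over RefSeq genes. The aligner, the counter and the use of strand are not given in the sources used here. The authors deposited, per gene, an estimated count of reads (17.7% to 23.2% of the values under 1000 in a library were not whole), an RPKM value, a score and a signal. The score and the signal, both made by the authors from the RPKM, were not used. Groups follow the sample titles. The members, the list of other pathway genes and the tests were chosen with earlier results of these data known.

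Estimated counts were rounded and tested with edgeR 4.0.16 in R 4.3.3 (TMM, quasi-likelihood test, 3 against 3 libraries), with Benjamini-Hochberg adjustment over 12731 genes with at least 1 read in all 18 libraries. A standard error is the log2 fold change divided by the root of its F statistic. Called means an adjusted p under 0.05. Tests use TMM factors of the comparison, whereas CPM values printed use factors over all libraries. Promoter windows are from RefSeq. All 10 members are named, and other pathway genes where they were among the 3 largest rises or falls past the threshold with groups that did not overlap. Counts at 3 reads cover counting error only.

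Alternatives were no filter, filterByExpr, DESeq2 1.42.0, its size factors, total counts, a shared fit of 6 groups without and with 1 surrogate variable (sva 3.50.0), the replicate number as a block, and leaving out each library. An offset for transcript GC content (GENCODE transcripts on mm9, lowess span 0.3, 94.5% of genes tested), alone and with the block, was added after seeing the data. Only the main edgeR fit was tried on simulated data, in the design of the last Tu time against control. The alternatives and the HS designs were not simulated, and no outcome of the simulation is given here. Deviations of same-numbered libraries correlated above 0.1 in all 3 pairs only for Tu at 135 min against control (0.289, 0.24 and 0.197). There Tu replicate 2 with control replicate 3 had 0.191, and Tu replicate 3 with control replicate 2 had 0.158. These values therefore do not settle whether the numbers pair the libraries. The block changed no member's call in that comparison (0 called).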

Additional observations from a re-analysis of the deposited data

Results flagged for a closer look

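In direct tests between times of the same treatment or between treatments at a matched time (edgeR, 3 against 3 libraries), 9 differences of ERAD genes passed the threshold. They were flagged as levels that differed between the groups compared. From 45 to 135 min of Tu, the log2 fold change of Herpud1 was -1.45, where 0.173% of all genes tested were called lower. The call was held in 1 of 6 fits that left out a library and lost with the replicate block (edgeR adjusted p = 0.568). From 135 to 405 min of Tu the log2 fold change was 3.92 for Herpud1, 3.41 for Syvn1, 2.98 for Sel1l, 2.23 for Edem1, 2.20 for Derl1, 1.90 for Derl2 and 1.60 for Edem2. In that comparison 21.4% of all genes tested were called higher. Between HS and Tu at 135 min the log2 fold change of Herpud1 was 1.84, where 1.3% of all genes tested were called higher. This call was held in 2 of 6 fits that left out a library and lost with the block (edgeR adjusted p = 0.328). With 3 libraries to a group, no test for single outlying values was run.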

How the results depend on the processing

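The number of ERAD genes called was within 1.5 times the value reported in every alternative at 405 min of Tu against control (8 called) and against 135 min of Tu (7 called). Elsewhere it moved. At 45 min of HS, with 0 reported, DESeq2 gave 1, the shared fit 3, the surrogate variable 1, and leaving out a library 0 to 5, with 5 only without HS 45 min replicate 3. At 135 min of HS, with 2 reported, the shared fit, the surrogate variable and the GC offset each gave 5, the replicate block 0, and leaving out a library 1 to 3. At 45 min of Tu, with 1 reported, DESeq2, total counts, the GC offset and the GC offset with the replicate block each gave 2, the surrogate variable 3, and leaving out a library 1 to 2. At 135 min of Tu, with 0 reported, DESeq2 gave 1, the shared fit 1, the surrogate variable 3, and leaving out a library 0. Between 45 and 135 min of Tu, with 1 reported, the surrogate variable gave 3, the replicate block 0, the GC offset with the block 0, and leaving out a library 0 to 1. Between HS and Tu at 135 min, with 1 reported, DESeq2 gave 2, the shared fit 4, the surrogate variable 4, the GC offset 3, the replicate block 0, the GC offset with the block 0, and leaving out a library 0 to 1. The cause was not tested, and the share of all genes called in the alternatives was not tabulated. Of the changes given in the text, that of Ube4a at 405 min of Tu was reversed (0.11 with the surrogate variable). Of the 45 changes against control plotted for 9 members, 11 changed sign in some alternative, none of them called in the fit plotted or where reversed. They were those of Sel1l, Edem1, Edem2 and Edem3 at 45 min of HS, Edem2 and Edem3 at 135 min of HS, Edem2 at 45 min of Tu, and Sel1l, Derl1, Edem2 and Edem3 at 135 min of Tu, with reversed values of -0.15 to 0.14.

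The labels do not say whether same-numbered libraries were handled together, and the correlations of their deviations, over 3 libraries to a group, cannot decide it. The block moved Herpud1 and Syvn1 at 135 min of HS to adjusted p-values of 0.101 and 0.143 (edgeR) at log2 fold changes of 2.66 and 1.90. A fit that leaves out a library has fewer samples. All members passed the filter, so that the permutation test and pseudocount meant for members outside it gave no value. Depth limits Derl3, with 2 to 25 reads.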
